A study of Homo sapiens with 8 samples.

Results

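Simple keratins, the 2 classical cadherins CDH1 and CDH2, the surface protein EPCAM, the transcription factor ELF3 and vimentin (VIM) are the genes commonly read to place a cell between an epithelial and a mesenchymal state. They were described here as a set of 8 genes, taken by symbol from the 26830 gene symbols of the table, and all 8 were found. The data come from 4 cultures of 1 Cas9-carrying clone labelled HEK293T, a human embryonic kidney line, and comprise 8 libraries. A culture carried a lentiviral guide RNA: sgNS, the negative control, in 1 culture, and sgMETTL16-1, sgMETTL16-2 or sgMETTL16-3, each directed at the RNA methyltransferase gene METTL16, in 1 culture each. All 4 cultures were kept in 10 µg/ml blasticidin and 2 µg/ml puromycin for 1 week or more, and received 100 µg/ml cycloheximide for 5 min, which holds ribosomes on mRNA. Input RNA and ribosome footprints of 17 to 34 nt were sequenced from each culture. Values are in TPM, in which reads are scaled by transcript length and every library sums to the same total. Values of the 3 sgMETTL16 cultures are given in the order of guides 1, 2 and 3.

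Keratins of simple epithelia form filaments from pairs of a type I chain (KRT18, KRT19) and a type II chain (KRT8), and KRT8 with KRT18 is the pair of hepatocytes. CDH1 (E-cadherin) and CDH2 (N-cadherin) hold neighbouring cells together through catenins, and epithelia that become mesenchymal are known to lose CDH1 and gain CDH2 and vimentin. EPCAM is an adhesion protein of epithelia and progenitor cells, and ELF3 is an epithelial factor of the ETS family that responds to inflammatory signals. Vimentin is the intermediate filament of mesenchymal cells and is known to be abundant in HEK293 cells.

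The labelled cell line was checked first. Each of 14 hepatocyte markers reached 10 TPM in every input, with sums amounting to 7199 TPM in sgNS and to between 8703 and 12680 TPM in the sgMETTL16 cultures. Of 16 markers listed for HEK293 cells, 8 were under 1 TPM in every input and 6 of these were at 0: VIM, NEFL, NEFM, CRABP1, HOXB9 and GATA3. The 3 at 10 TPM or more in every input were KRT8, KRT18 and TUBB3 (97.72 to 164.27 TPM). NES, ENO2, LIN28B, CDH2 and HOXA5 lay between these groups. KRT8, KRT18, CDH2 and VIM on this list are also members of the set described. METTL16 RNA measured 5.31 TPM in sgNS against 4.72, 5.25 and 4.16 TPM with the guides, on TPM as deposited. The median tested gene, on log2(TPM + 1), was lower in sgNS (2.446) than with the guides (3.081, 3.228 and 2.616). Relative to that gene METTL16 therefore lay further below sgNS in each guide culture than these TPM show. Its footprints, 19.76 TPM with the control guide, dropped out of each library with a METTL16 guide, which is the direction of the labels. METTL16 was 1 of 543 genes called in the footprint comparison with this pattern. Read counts were not used here, so depth is unknown. Between 17982 and 18805 genes were above 0 in an input library and between 4362 and 6735 in a footprint library.

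In the input RNA the 8 genes ranged from the most abundant protein-coding transcripts to none listed. KRT8 measured 354.06 TPM in sgNS against 609.54, 795.55 and 777.26 TPM with the 3 METTL16 guides. It ranked 79th of 18786 protein-coding genes in sgNS and 20th in sgMETTL16-3. KRT18, its type I partner, measured 309.04 TPM in sgNS against 536.74, 498.73 and 432.34 TPM in the 3 sgMETTL16 inputs. The sgNS library was the lowest for both genes. KRT19, the smallest keratin and a marker of bile duct and progenitor cells, measured 156.59 TPM in sgNS against 363.69, 479.81 and 497.56 TPM.

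EPCAM was far lower than the keratins, with 10.4 TPM in sgNS against 16.79, 34.7 and 17.08 TPM in the sgMETTL16 inputs, with sgMETTL16-2 standing above the rest. ELF3 measured 2.38 TPM in sgNS against 7.19, 10.79 and 11.12 TPM, so that the lone control lay below all 3 guides. CDH1 measured 1.72 TPM in sgNS against 3.88, 4.81 and 3.93 TPM. CDH2 was the more abundant cadherin in every input, with 6.23 TPM in sgNS against 10.43, 12.03 and 6.13 TPM, and here sgMETTL16-3 lay as low as the control. VIM was listed at 0 in all 4 inputs. Genes were ordered as KRT8, KRT18, KRT19, EPCAM, CDH2, ELF3, CDH1 and VIM by mean input TPM. KRT18 stood above KRT19 in 3 of 4 libraries, by 0.35 ± 0.53 (SD, n = 4) on the log2(TPM + 1) scale. CDH2 stood above ELF3 in 3 of 4, by 0.24 ± 0.78, and these 2 pairs did not differ beyond their spread. The other neighbouring pairs kept their order in all 4 inputs.

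**Figure D1:**
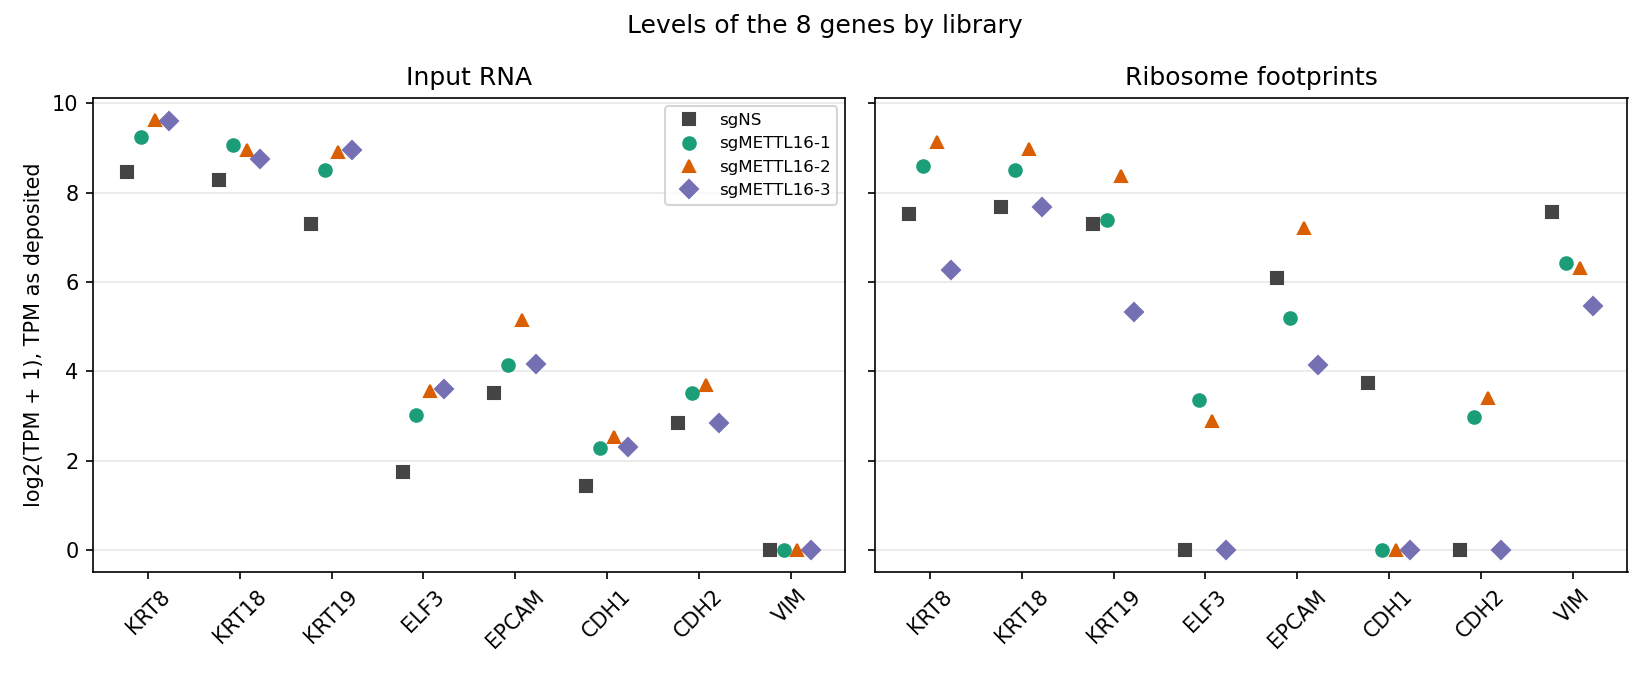
Levels of the 8 genes as log2(TPM + 1) of the deposited TPM, in input RNA (left) and ribosome footprints (right); each point is 1 library, and a point at 0 is a gene listed at 0. In the inputs the sgNS square is the lowest for KRT8, KRT18, KRT19, ELF3, EPCAM and CDH1, VIM lies at 0 in all 4 inputs, and VIM is above 0 in all 4 footprint libraries.

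For input RNA the question was which transcripts took a different share with METTL16 guides than with sgNS. No member passed the test. Values were compared as log2(TPM + 1) with each library centred on its median gene. Of the 7 members tested (VIM did not enter, at 0), 6 lay above 0 and 5 were higher than sgNS in each of the 3 cultures, as were 23.4% of all 10967 tested genes, which share the same single control. None of the 7 passed limma's moderated test at an adjusted p of 0.05, where 2.83% of all genes passed, and 2 of the 7 had an unadjusted p under 0.05. The median change of the 7 members was 0.46, against -0.06 for all tested genes. The 3 sgMETTL16 cultures carry different guides and the control is 1 culture, so the spread behind each p is that between guides and cultures. In the input fit limma took this spread wholly from genes of like abundance. The SE, interval and p of a gene therefore do not reflect its own spread between the guides.

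ELF3 had the largest change of the set, 1.11 (SE 0.37, 95% interval 0.39 to 1.83, limma adjusted p = 0.0779), and 1.78% of tested genes lay higher. Its change was 0.64, 1.02 and 1.67 in sgMETTL16-1, sgMETTL16-2 and sgMETTL16-3. The call depended on the processing: ELF3 passed in 6 of 11 other settings, with adjusted p from 0.00568 to 0.504. With a culture left out it passed without sgMETTL16-2 (1.16, limma adjusted p = 0.0244) but not without sgMETTL16-1 (1.35, 0.504) or sgMETTL16-3 (0.83, 0.119). KRT19 followed at 0.97 (SE 0.44, 95% interval 0.10 to 1.83, limma adjusted p = 0.341), with 0.58, 0.83 and 1.49 in the single cultures. It passed in 1 of 11 other settings, on TPM rescaled to protein-coding genes (1.27, adjusted p = 0.021). For both genes sgMETTL16-3 lay furthest from the control.

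KRT8 was at 0.50 (95% interval -0.40 to 1.39, limma adjusted p = 0.827) and KRT18 at 0.13 (-0.75 to 1.00, adjusted p = 0.974). EPCAM was at 0.46 (-0.29 to 1.21, limma adjusted p = 0.792), of which sgMETTL16-2 gave 0.87 and sgMETTL16-1 0.01. CDH1 was at 0.40 (-0.27 to 1.08, limma adjusted p = 0.801). CDH2 was at -0.03 (-0.76 to 0.70, limma adjusted p = 0.994) and became positive under 4 of 11 other settings. These intervals leave room for changes of 1 log2 unit in the keratins, EPCAM and CDH1. Without centring the median of all genes moved to 0.46, so the larger raw differences in TPM include a shift shared by most genes.

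**Figure D2:**
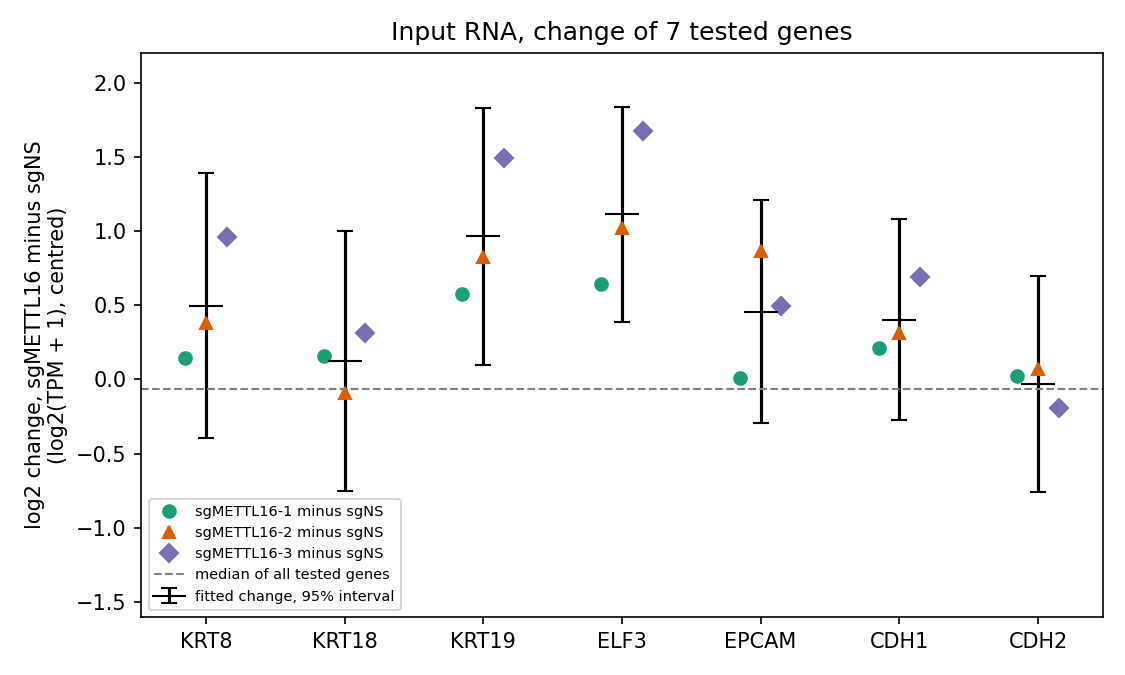
Change of 7 members in input RNA, sgMETTL16 minus sgNS, on the centred log2(TPM + 1) scale; bars are the fitted change with its 95% interval, points are the single cultures minus the same sgNS library, and the dashed line is the median of all tested genes (-0.06). ELF3 and KRT19 have intervals above 0, and CDH2 lies at -0.03.

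Ratios within a library do not depend on how libraries are scaled, and KRT19 stood higher relative to the other keratins in the sgMETTL16 inputs than in sgNS. KRT19 was at 0.442 of KRT8 in sgNS RNA against 0.597, 0.603 and 0.64 with the guides (0.613 ± 0.0235, SD, n = 3). The control lay below all 3 guides, but the SD is that of the guides alone and gives no spread for the control. With 1 culture against 3, no p below 0.25 is possible in an exact two-sided permutation test. The ratios of KRT19 to KRT8 and of KRT18 to KRT19 were not among the planned ratios. KRT18 was at 1.97 times KRT19 in sgNS and at 1.48, 1.04 and 0.869 times in the sgMETTL16 inputs. The balance of type I to type II chains, KRT18 plus KRT19 over KRT8, was 1.31 in sgNS and 1.3 ± 0.153 in sgMETTL16, so the control fell inside the range of the guides (1.2 to 1.48). CDH1 was at 0.276 of CDH2 in sgNS and at 0.372, 0.4 and 0.641 in the sgMETTL16 inputs (0.471 ± 0.148, SD, n = 3), again with the control lowest. CDH1 rests on values under 5 TPM.

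**Figure D3:**
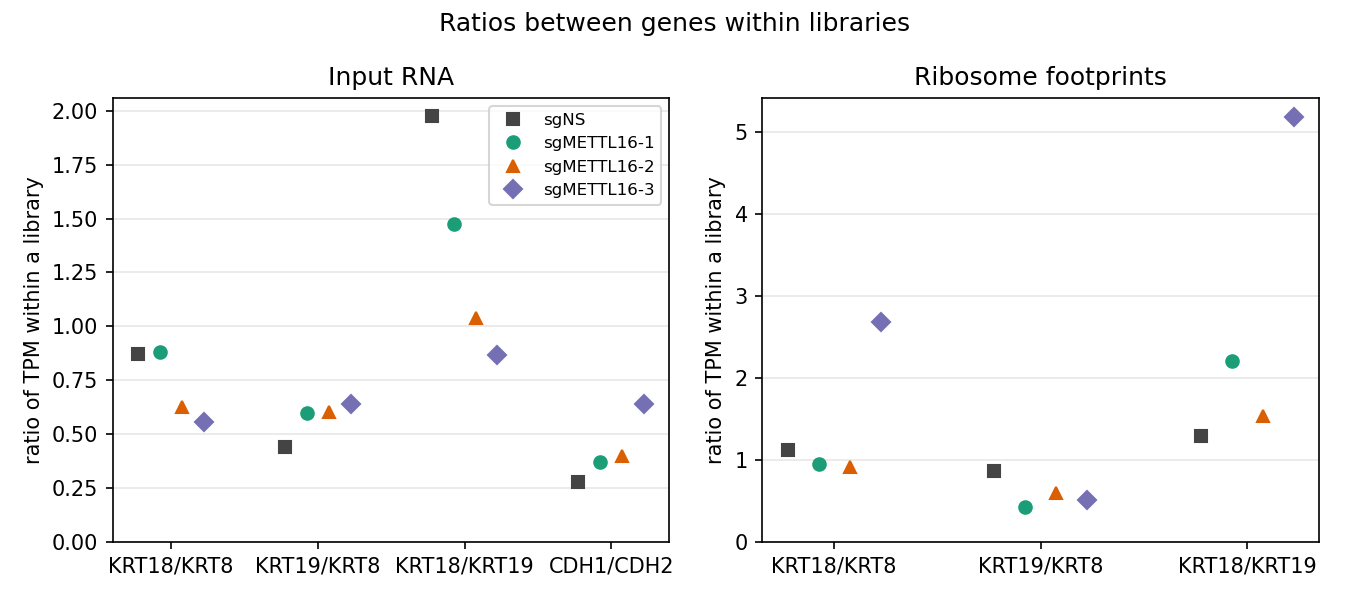
Ratios of TPM between members within a library, in input RNA (left, with CDH1 to CDH2) and footprints (right, keratins); each point is 1 library and both axes start at 0. In the inputs KRT19 to KRT8 is lowest in sgNS (0.442 against 0.597 to 0.64) and KRT18 to KRT19 is highest there (1.97); in the footprints KRT19 to KRT8 is highest in sgNS (0.862).

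Copies and neighbours of the keratin genes could share reads. KRT8 (chromosome 12, 52897191 to 52949860, GRCh38.p14) and KRT18 (chromosome 12, 52948855 to 52952906) overlap by 1006 bases in the RefSeq annotation, and use of strand in the counting is not given in the sources used here. The processed pseudogenes listed were KRT8P41, at 0.55 to 1.43 TPM in the inputs, and KRT18P55, at 0.08 to 1.1 TPM, and both were at 0 in all footprint libraries. Adding them left the mean type I to type II ratio of sgMETTL16 at 1.3. The other members lie on chromosome 17 (KRT19, 41523617 to 41528308), chromosome 1 (ELF3, 202010587 to 202017183), chromosome 2 (EPCAM, 47369311 to 47387020), chromosome 16 (CDH1, 68737292 to 68835537), chromosome 18 (CDH2, 27932879 to 28177130) and chromosome 10 (VIM, 17228241 to 17237593).

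The promoter window of ELF3 is shown because this member had the largest fitted change in the input, one that did not pass the test. It is the 300 bases at chr1:202010337-202010636 (GRCh38.p14, plus strand, RefSeq), from 250 bases before the annotated start to 50 bases after it, with 2 motif matches in capitals.
ELF3: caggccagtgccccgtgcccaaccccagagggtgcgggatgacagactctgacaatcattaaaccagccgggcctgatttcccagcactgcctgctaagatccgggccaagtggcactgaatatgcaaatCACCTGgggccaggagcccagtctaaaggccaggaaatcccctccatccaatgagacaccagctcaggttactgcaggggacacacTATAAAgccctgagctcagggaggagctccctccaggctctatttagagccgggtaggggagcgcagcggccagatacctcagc
The letters TATAAA, searched on both strands, occur 1 time, beginning 34 bases before the start, and 11.5% of 35116 windows of this length hold them. The E-box CACCTG, the letters bound by SNAI and ZEB repressors of epithelial genes, occurs 1 time, 120 bases before the start, and 20.6% of windows hold it on either strand. The ETS core GGAA, left in lower case, occurs 2 times over both strands, and 95.5% of windows hold it. The 2 matches in capitals do not overlap, and a match of letters is no evidence of binding.

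Genes around the members were read from 12 lists (other keratins, filament linkers, other intermediate filaments, other cadherins, the cadherin complex, tight junctions, epithelial surface proteins, epithelial regulators, mesenchymal genes, NF-κB genes linked to ELF3, keratin partners, and EPCAM processing). Of 201 listed genes 117 were tested in the input: 6 rose and 1 fell, or 5.98% together. Of all tested genes 2.83% passed, 1.58% higher and 1.25% lower. The lists were chosen with earlier results of these data known, so the 2 shares do not test whether the lists differ from other genes. The median change of the 117 list genes was 0.19. KRT23, a type I keratin, went from 2.32 TPM in sgNS to 14.5 ± 9.75 TPM in sgMETTL16 (log2 change 1.52, limma adjusted p = 0.00281), with sgMETTL16-2 highest at 25.71 TPM. It was the single one of 4 tested other keratins to pass, and 12 of the 16 on that list were under 1 TPM in every input, among them KRT7. KRT10 was at -0.86 (limma adjusted p = 0.262).

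Of 13 tested epithelial surface genes 2 rose: LAMB3, a laminin chain of basement membranes, from 0.19 TPM to 3.89 ± 1.24 TPM (log2 change 1.48, limma adjusted p = 0.000483), and CD24, a surface glycoprotein, from 2.08 to 13.2 ± 7.81 TPM (1.54, adjusted p = 0.00218). Mesenchymal genes were 13 tested with 2 higher. Of these ITGA5, the fibronectin receptor chain, went from 0.5 to 5.53 ± 2.36 TPM (log2 change 1.52, limma adjusted p = 0.00076). The mesenchymal factors PRRX1 and TWIST1 were at 0 in all inputs.

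FHL2, a LIM-domain partner of the EPCAM intracellular domain, rose by 1.36 (limma adjusted p = 0.00529). TJP3, a tight junction scaffold, fell by 0.93 (limma adjusted p = 0.0462), from 1.64 TPM to 1.02 ± 0.34 TPM, and passed in 2 of 11 other settings. In the same 2 lists TCF7L2 was at -0.71 and PARD6B at 0.87 (limma adjusted p = 0.482 and 0.273). Without sgMETTL16-1, KRT23 (1.74, limma adjusted p = 0.116), CD24 (1.77, 0.0978), FHL2 (1.42, 0.238) and TJP3 (-0.999, 0.478) did not pass, and none of the 7 genes passed on TPM as deposited.

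No member passed in the other 7 lists. Linkers of keratin filaments (13 tested, median change -0.01) had desmoglein DSG2 at 0.88 and DST at 0.69. The cadherin complex (9 tested, 8 of them above 0, median 0.23) had CTNNAL1 at 0.80 and the catenin CTNNA1 at 0.69. Epithelial regulators (10 tested, 3 above 0, median -0.17) had the hepatic factor FOXA2 at -0.75 and the splicing factor RBM47 at 0.66, while GRHL2 was at 0 in all inputs. NF-κB genes (4 tested, all above 0, median 0.66) had TNFAIP3 at 0.86 and NFKBIA at 0.79. Keratin partners (17 tested, 15 above 0, median 0.28) had the 14-3-3 protein SFN at 1.01. Other intermediate filaments (5 tested, 1 above 0, median -0.48) had lamin LMNB1 at -0.76 and SYNM at -0.48. Of 15 other cadherins CDH15 alone was tested, at -0.63. Limma adjusted p lay between 0.218 and 0.652 for the genes whose change is given here, which were named for a small p in their list.

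Markers of other cells were set beside the members, since in bulk RNA fewer cells of a type and less RNA per cell cannot be told apart. The 12 bile duct and progenitor markers, which include KRT19 and EPCAM, summed to 276 TPM in the sgNS input and to between 534.7 and 793.5 TPM in sgMETTL16. KRT19 alone made up 156.59 TPM of the sgNS sum and 363.69, 479.81 and 497.56 TPM of the sgMETTL16 sums. These sums thus largely repeat the KRT19 values. Of 8 tested, 1 passed: SPP1 at 1.54 (limma adjusted p = 0.00483). Of the 12 listed, 6 reached 10 TPM in every input. Beside KRT19, EPCAM and SPP1 these were SOX9 (65.74 to 88.66 TPM), SOX4 (13.32 to 47.64 TPM) and GGT1 (16.49 to 21.82 TPM). Another 4 stayed under 1 TPM in every input, among them the duct cell markers KRT7 and CFTR. Hepatocyte markers had a median change of 0.23 with none of 14 past the threshold. Fibroblast markers summed to between 2.74 and 5.69 TPM in the inputs, with 6 of 10 at 0. Intestinal epithelium markers had 7 of 9 under 1 TPM and VIL1 at 41.6 to 76.58 TPM. Blood markers summed to 277.3 TPM in sgNS and to between 281.6 and 719.5 TPM in sgMETTL16, with 5 of 10 under 1 TPM. LYZ alone made up 216.31 TPM of the sgNS sum and 479.95, 619.72 and 193.67 TPM of the sgMETTL16 sums. The blood sums thus largely repeat the LYZ values. The part of other cells in the members' differences was not tested.

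The footprint comparison asked which mRNAs held more or fewer protected fragments, and the members split into 3 keratins with signal in every library, EPCAM and VIM likewise, and ELF3, CDH1 and CDH2 near the limit of detection. KRT8 footprints measured 182.54 TPM in sgNS against 385.56, 556.93 and 75.89 TPM with the 3 METTL16 guides. KRT18 footprints measured 203.67 TPM in sgNS against 365.56, 506.84 and 203.28 TPM. KRT19 footprints measured 157.26 TPM in sgNS against 166.05, 330.95 and 39.24 TPM. sgMETTL16-2 was highest and sgMETTL16-3 lowest for all 3 keratins, with sgNS inside their range. Protein-coding genes held 11.9% of TPM in the sgMETTL16-3 footprints and 26.8% to 28.2% in the other 3 footprint libraries; the part of this in the low values was not tested. EPCAM was also highest in sgMETTL16-2 and lowest in sgMETTL16-3, with 67.1 TPM in sgNS against 35.43, 147.38 and 16.74 TPM.

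ELF3 footprints were at 9.29 TPM in sgMETTL16-1 and 6.44 TPM in sgMETTL16-2 and were listed at 0 in sgNS and sgMETTL16-3. CDH2 had the same pattern, at 6.94 and 9.63 TPM in sgMETTL16-1 and sgMETTL16-2. CDH1 was the reverse, at 12.28 TPM in sgNS and at 0 in all 3 sgMETTL16 libraries. The vimentin footprints stood with 188.14 TPM in sgNS against 85.16, 78.73 and 43.3 TPM in the sgMETTL16 libraries, with the control above all 3.

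For the test, footprint TPM was divided by a scaling factor per library that leaves 0 at 0. Of the 8 members CDH1 passed, lower in sgMETTL16 (limma adjusted p = 0.033), where 6.54% of 9297 genes passed, and 5.84% passed as lower. Of the 608 genes called, 543 were listed at 0 in all 3 sgMETTL16 libraries and 64 in sgNS, leaving 1 with signal on both sides, and a gene at 0 in all 3 sgMETTL16 libraries has no spread between them. CDH1 did not pass when any sgMETTL16 culture was left out (limma adjusted p from 0.0952 to 0.178), without the intensity trend (0.0755) or with log-scale centring (0.393), and no gene passed in those 5 settings. VIM was at -0.95 (95% interval -1.86 to -0.03, limma adjusted p = 0.382), and KRT18 at 1.26 (0.04 to 2.49, adjusted p = 0.383). KRT8 was at 1.02, KRT19 at 0.27 and EPCAM at -0.04, with intervals from below -2.5 to above 4 and limma adjusted p of 0.695, 0.871 and 0.982. The median of all tested genes lay at 0.90 on this scale.

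Footprint values of the members stood in small whole-number proportions between libraries. Over genes above 0 in a pair of libraries 1 ratio recurred, as for genes with equal reads in both: 1.89 from sgNS to sgMETTL16-1 (29% of 3105 genes within a natural-log tolerance of 0.02), 2.73 to sgMETTL16-2 (23.6% of 3410) and 2.01 to sgMETTL16-3 (33.8% of 2547). Multiplying the values of each library by its ratio puts them on the scale of a read in sgNS. ELF3 then stood at 17.6 in both sgMETTL16-1 and sgMETTL16-2, a ratio of 1 to 1. CDH2 stood at 13.1 and 26.3, a ratio of 1 to 2, and the single CDH1 value stood at 12.3. TPM scales reads by transcript length, so a read has a different worth in each gene. Values of different genes cannot be compared as reads. EPCAM stood in the proportion 2, 2, 12 and 1 over sgNS, sgMETTL16-1, sgMETTL16-2 and sgMETTL16-3, each within 2% of a whole number.

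For KRT19 the smallest whole numbers within that tolerance were 4, 8, 23 and 2, and for KRT18 they were 3, 10, 20 and 6. KRT8 gave 6, 24, 50 and 5, and VIM 13, 11, 15 and 6, where numbers of that size can be met more loosely. The proportions are not read counts, which could be any multiple of them. On this scale, which is not corrected for depth, the 3 keratins, EPCAM and VIM were highest in sgMETTL16-2. VIM stood at 188.1 in sgNS against 161.2, 215 and 86.8, so that the control was no longer above all 3 guides as it was in TPM. This reading was added after the values were seen.

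Translation efficiency, the footprint to input ratio, was compared between sgMETTL16 and sgNS as an interaction over all 8 libraries. No member of 7 tested passed with limma (0.85% of 8002 genes did), and 1 of the 7, CDH1, had an unadjusted p under 0.05 (adjusted p = 0.072). All 68 genes called were listed at 0 in the sgNS footprints (49) or in all 3 sgMETTL16 footprint libraries (19), and with the culture as a block limma called 0 genes, while 606 stood below an unadjusted p of 0.05. KRT18 was at 1.17 (95% interval -0.15 to 2.50, limma adjusted p = 0.575) and KRT8 at 0.56 (-2.35 to 3.46, adjusted p = 0.827). KRT19 was at -0.67 (-3.76 to 2.43, limma adjusted p = 0.825) and EPCAM at -0.50 (-3.98 to 2.98, adjusted p = 0.847). The median of all genes was 0.63, so the intervals of these 4 genes include it. Within libraries KRT19 was at 0.862 of KRT8 in the sgNS footprints and at 0.431, 0.594 and 0.517 in the sgMETTL16 footprints, the opposite order to the input. The sgNS ratio comes from 1 footprint library of unknown depth, so its spread is unknown and this order was not tested.

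Footprints were then set against input RNA over the 4 cultures, on TPM scaled over protein-coding genes present in all 8 libraries. Most genes had lower scaled values in the footprints: 44.7% of 11233 genes passed, 4.46% as higher and 40.3% as lower in footprints, and the median difference was -1.56. KRT8 was at -2.28 (SE 0.54, limma adjusted p = 0.00999), KRT19 at -2.24 (0.56, 0.0128), KRT18 at -1.47 (0.38, 0.0146) and CDH2 at -2.29 (0.73, 0.0347). These 4 of 8 members passed as lower, and the 95% interval of each includes the median gene. With the culture as a block CDH2 did not pass (limma adjusted p = 0.0558), and on TPM as deposited none of the 4 did (0.153 to 0.326), nor over protein-coding genes (0.0531 to 0.215). KRT18 and KRT19 also did not pass without sgMETTL16-1 or without sgMETTL16-3, nor KRT8 without sgNS or without sgMETTL16-3 (limma adjusted p from 0.0503 to 0.0815), and CDH2 passed without sgMETTL16-2 alone. CDH1, at -1.76 (limma adjusted p = 0.0726), passed without sgNS, the 1 library with its footprints (-2.61, adjusted p = 0.000712). EPCAM was higher in the footprints in 3 of 4 cultures, at 0.52 (95% interval -0.80 to 1.85, limma adjusted p = 0.497), with an interval above the median gene.

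VIM stood apart from the rest of the set, with footprints in 4 of 4 cultures and no listed RNA (limma adjusted p = 1.69e-05). As the input is listed at 0, no fold is given. It passed in all 10 other settings in which it was tested, with adjusted p up to 0.00262. Of 2645 protein-coding genes listed at 0 in all 4 inputs, 2563 were also at 0 in every footprint library and 4 had footprints in all 4. VIM was the second highest of these by mean footprint TPM. The others, named after their values were seen, were insulin (INS, 62.53 to 262.47 TPM), ARHGAP15 (34.59 to 98.25 TPM) and LDHB, a lactate dehydrogenase chain (16.13 to 88.14 TPM). Footprints in all 4 libraries with little input RNA were not limited to genes at 0. List genes with this pattern were SPINT2 (inputs 0.08 to 0.19 TPM, footprints 12.95 to 74.71 TPM), CD44 (0 to 0.14, 4.94 to 49.57) and LEF1 (0.24 to 0.38, 8.09 to 48.65). In footprints against input 0.46% of all tested genes lay higher than VIM. The antisense transcript VIM-AS1 was at 0 to 0.07 TPM in the inputs, and at 27.1 TPM in the sgMETTL16-3 footprints and 0 in the other footprint libraries, and without stated strand use it cannot be separated from VIM.

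**Figure D4:**
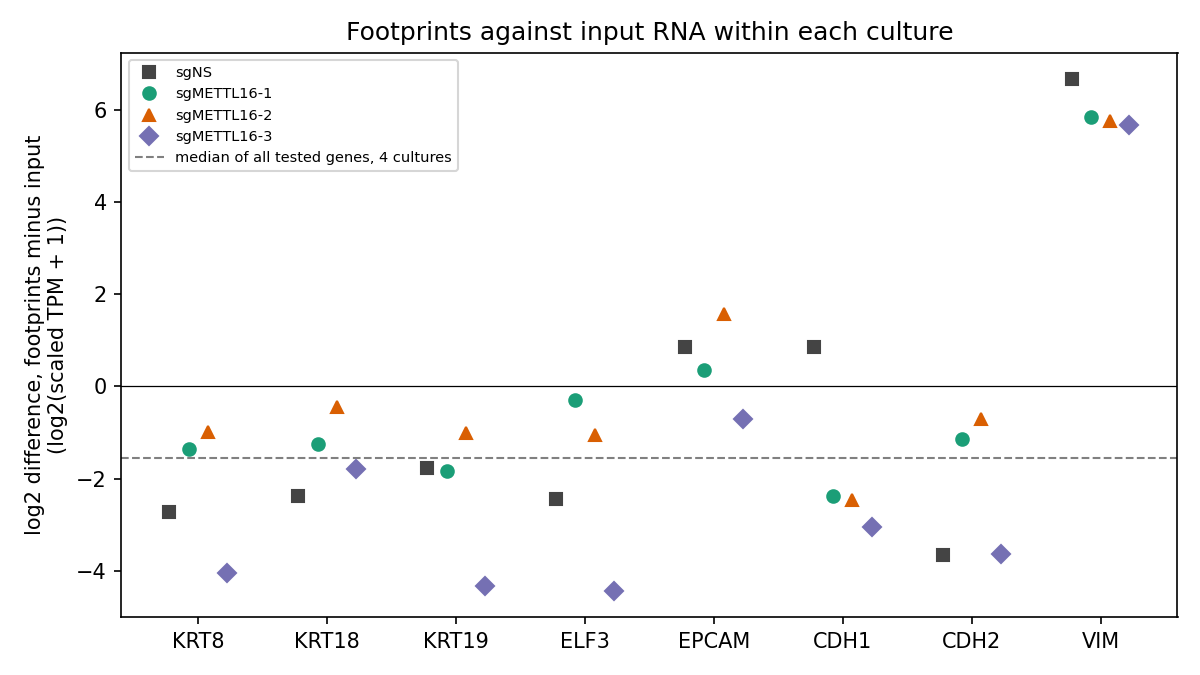
Difference between footprints and input RNA of the same culture for the 8 members, on log2(scaled TPM + 1); each point is 1 culture and the dashed line is the median of all tested genes (-1.56). VIM lies between 5.67 and 6.68 in all 4 cultures, where its size depends on the pseudocount because its input is listed at 0; the same holds for points of ELF3, CDH1 and CDH2 with footprints at 0.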

How the data were processed

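Input RNA and ribosome footprints were measured in 1 sgNS and 3 sgMETTL16 cultures. Per the submitters' processing notes the authors used STAR, RSEM 1.2.31 and the GRCh38 build, and they deposited TPM per gene symbol and library. Of 26830 symbols 23987 matched RefSeq (GRCh38.p14) by name and 1395 by an older name. TPM sums to a fixed total in each library, so it shows shares and not amounts, and depth is unknown.

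Tests used limma 3.58.1 (R 4.3.3) with an intensity trend on log2(TPM + 1), over all genes with a mean of 1 TPM or more (in both kinds of library for translation efficiency), with Benjamini-Hochberg adjustment at 0.05. Inputs were centred on the median tested gene. Footprint libraries, whose median gene can be at 0, were instead divided by median-of-ratios factors over 1870 genes above 0 in all 4, so that 0 stays 0. Comparisons of both kinds of library used such factors too, over 1785 protein-coding genes for footprints against input. The script was tested on simulated data. The fits give the single control culture the spread of the cultures with METTL16 guides, which differ in guide as well.

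Input and footprint libraries were paired by the guide named in their titles. The deviations of the 2 kinds from their sgMETTL16 means correlated at 0.0552, -0.0111 and -0.0212 (Pearson r across 3632 protein-coding genes) for sgMETTL16-1, sgMETTL16-2 and sgMETTL16-3. Pairs of unlike guides ranged from -0.0851 to 0.0652, so these correlations do not set the titled pairs apart. Differences within a culture and fits with the culture as a block rest on the titles.

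The members and lists were chosen with earlier results of these data known. Named genes were the 8 members, METTL16, list genes past the threshold and the 2 with the smallest p per list in the input, marker genes that bear on the label, copies and antisense partners, and the 2 genes nearest to a member over the libraries. For footprints against input, list genes are given as counts. Some genes that the rule names are not reported here.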

Additional observations from a re-analysis of the deposited data

How the results depend on the processing

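Of 313 values of the members under other settings, 262 kept their direction and side of the threshold, 24 fell short of it, 11 newly passed it and 16 changed sign. TPM gives no depth, so the precision of a value is unknown. In the input the count of 310 genes became 23 on TPM as deposited, and leaving out 1 sgMETTL16 culture gave 110 (without sgMETTL16-1) to 664 (without sgMETTL16-3). CDH2 turned positive with no filter (0.11), on TPM as deposited (0.50) and over protein-coding genes (0.32), and ranged from -0.077 to 0.047 with a culture left out.

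The 608 footprint calls became 0 for genes above 0 in every library, with log-scale centring, with no intensity trend and without any one of the sgMETTL16 cultures (0 to 0). With that centring KRT8 was at -1.65, KRT18 at -1.41, KRT19 at -2.40 and ELF3 at -0.042, and on TPM as deposited KRT19 was at -0.28. With a culture left out KRT19 ranged from -0.19 to 0.99 and EPCAM from -0.67 to 0.53.

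The 68 translation efficiency calls became 731 and 352 with pseudocounts of 0.1 and 0.5, 1263 with no filter, 14 on TPM as deposited and 463 over protein-coding genes. They became 0 for genes above 0 in every library, without any one sgMETTL16 culture (0 to 0), and with the culture as a replicate block, which also ended the call of CDH2 in footprints against input and no other call of a member. KRT8 was at -0.55 on TPM as deposited. With a culture left out KRT19 ranged from -1.17 to 0.34, ELF3 from -0.0045 to 2.31 and EPCAM from -0.91 to 0.089. The 5025 calls of footprints against input became 10727 with no filter, 1104 for genes above 0 in every library and 3114 over protein-coding genes. Apart from fewer genes or samples entering a setting, the cause of these differences was not tested.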

Other observations

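Levels over the 8 libraries placed the members beside abundant liver and housekeeping genes. By Euclidean distance of log2(TPM + 1) over the 8 libraries, genes nearest to KRT8 were APOE (1.63), an apolipoprotein, and ALDOA (1.65), a glycolytic aldolase. Nearest to KRT18 were RBP4 (0.942), the plasma carrier of retinol, and ALDOA (1.08). KRT19 lay near complement C3 (1.6). EPCAM had the kinase CSNK1A1 (1.42) and the secretory coat gene SEC23B (1.43).

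In the footprint comparison 104 genes of the 12 lists were tested and 5 passed, all lower (4.81% against 6.54% of all genes, limma). They were SPINT1, a protease inhibitor of epithelia, MAL2, TCHP, ZEB1 and TWIST1, at 23.62, 20.29, 18.45, 8.55 and 34.62 TPM in sgNS. Like CDH1, all 5 were listed at 0 in all 3 sgMETTL16 footprint libraries. In the comparison of footprints with input 63 of 121 list genes passed (52.1% against 44.7% of all genes), 6 higher in footprints and 57 lower. As the lists were chosen with earlier results of these data known, these shares do not test the lists.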
